A study of Rattus norvegicus with 3 samples.

Results

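The glucocorticoid-inducible genes described here were Fkbp5, Tsc22d3, Per1, Sgk1, Klf9, Dusp1 and Zfp36, together with Nr3c1, the gene of the glucocorticoid receptor that acts upstream of them. They were matched by symbol, with no threshold on a measured value but with earlier results of these data known, and all 8 were found among the 25199 rat features of the data. The question they answer is whether the cells of a treated cord share a steroid-type response across cell types, or show none. Fkbp5 was higher in both treated libraries than in the PBS library in macrophage-like, microglia-like and oligodendrocyte-like cells. In T-like cells Fkbp5 was lower in both treated libraries, past 1.5-fold but from few UMIs. Klf9 was at least 1.5-fold higher in 3 of 6 cell classes in G-HD and in 1 of 6 in MPG-HD, and as much lower in 1 in G-HD. Tsc22d3, Sgk1 and Nr3c1 had no difference past 1.5-fold that the classes shared, and Dusp1 and Zfp36 differed by cell class.

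The data are 3 single-cell RNA libraries made from the injured spinal cord of wild-type rats aged 6 to 8 weeks, each from a group of 5 animals. One group received an injection of PBS (phosphate-buffered saline) at the injury, one of the preparation labelled G-HD and one of that labelled MPG-HD. The labels do not say what G-HD and MPG-HD contain, nor whether either holds a steroid, nor how the animals of a group were pooled. All groups share the injury, and all cells were taken from a section of 5 mm by digestion with collagenase (1 mg/ml, 30 min at 37 °C) and trypsin (0.25%, 5 min), a treatment known to induce immediate early and heat shock genes.

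Glucocorticoids such as corticosterone, the main glucocorticoid of the rat, bind the glucocorticoid receptor in the cytosol, where Hsp90 and the co-chaperones p23 and Fkbp52 hold it ready for the hormone. The bound receptor enters the nucleus, binds glucocorticoid response elements, often far from the gene, and raises the transcription of a set of genes, some shared by most cell types and others not. It also represses inflammatory genes, partly through proteins it induces. Fkbp5 lowers the receptor's affinity for hormone and so closes a feedback loop. Tsc22d3 (GILZ) and Dusp1 dampen NF-kB, AP-1 and MAP kinase signalling, Zfp36 (tristetraprolin) destabilises AU-rich messenger RNAs such as that of Tnf, Sgk1 is a kinase of ion transport and cell survival, Klf9 is a transcription factor tied to myelination and neuronal maturation, and Per1 is a clock gene. Several of these genes answer other signals as well: Dusp1 and Zfp36 are immediate early genes, and Sgk1 responds to growth factors and osmotic stress.

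Each library is the only one of its treatment, so there is no replicate, and no test between treatments was possible. Levels are unique molecular identifiers (UMIs) of a gene pooled by cell class within each library and scaled to the pool's UMI total (CPM, the usual unit of scaled counts), and the intervals after them are exact 95% intervals of counting error alone, which leave out differences between animals and preparations. A gene counted as measured in a comparison with at least 20 UMIs in the 2 sums together, and as past the fold with a ratio of at least 1.5 in either direction. Both ratios to PBS share the PBS library, so they are given side by side and not as independent observations. UMIs come from the 3′ end and genes differ in capture, so levels are compared between libraries and classes and never between genes. The libraries kept 1373 (PBS), 2341 (G-HD) and 2087 (MPG-HD) cells with 10296, 9257 and 10425 median UMIs and a median mitochondrial share of 4.08%, 3.37% and 3.94%, and 5 to 8 barcodes were shared by each pair of libraries.

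Of 30 clusters, made without the 8 genes and the related lists used below, those with enough markers were joined into classes. Macrophage-like cells numbered 343, 712 and 466 in PBS, G-HD and MPG-HD, microglia-like cells 276, 296 and 406, oligodendrocyte-like cells 237, 174 and 413, fibroblast-like cells 137, 237 and 167, Schwann-like cells 95, 202 and 205, and T-like cells 50, 107 and 54. These 6 classes had at least 50 cells in every library. Neutrophil-like (26, 133 and 31), oligodendrocyte precursor-like (31, 59 and 69) and endothelial-like cells (35, 41 and 32) were large enough for levels only, and no cluster could be named astrocyte-like or neuron-like. More than 2-fold enrichment was found for 11 of 12 macrophage markers, 8 of 10 microglia markers, 10 of 10 oligodendrocyte markers, 8 of 8 fibroblast markers, 11 of 11 Schwann markers and 9 of 9 T markers in their classes. Some classes were made of different clusters in different libraries: most microglia-like cells of G-HD (165 of 296) lay in cluster 4, led by the interferon-induced genes Mx1, Slfn4 and Irf7, against cluster 1 in PBS and MPG-HD, and most fibroblast-like cells of G-HD (126 of 237) lay in cluster 8, against cluster 10 as the largest in PBS (54 of 137) and MPG-HD (81 of 167).

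**Figure D1:**
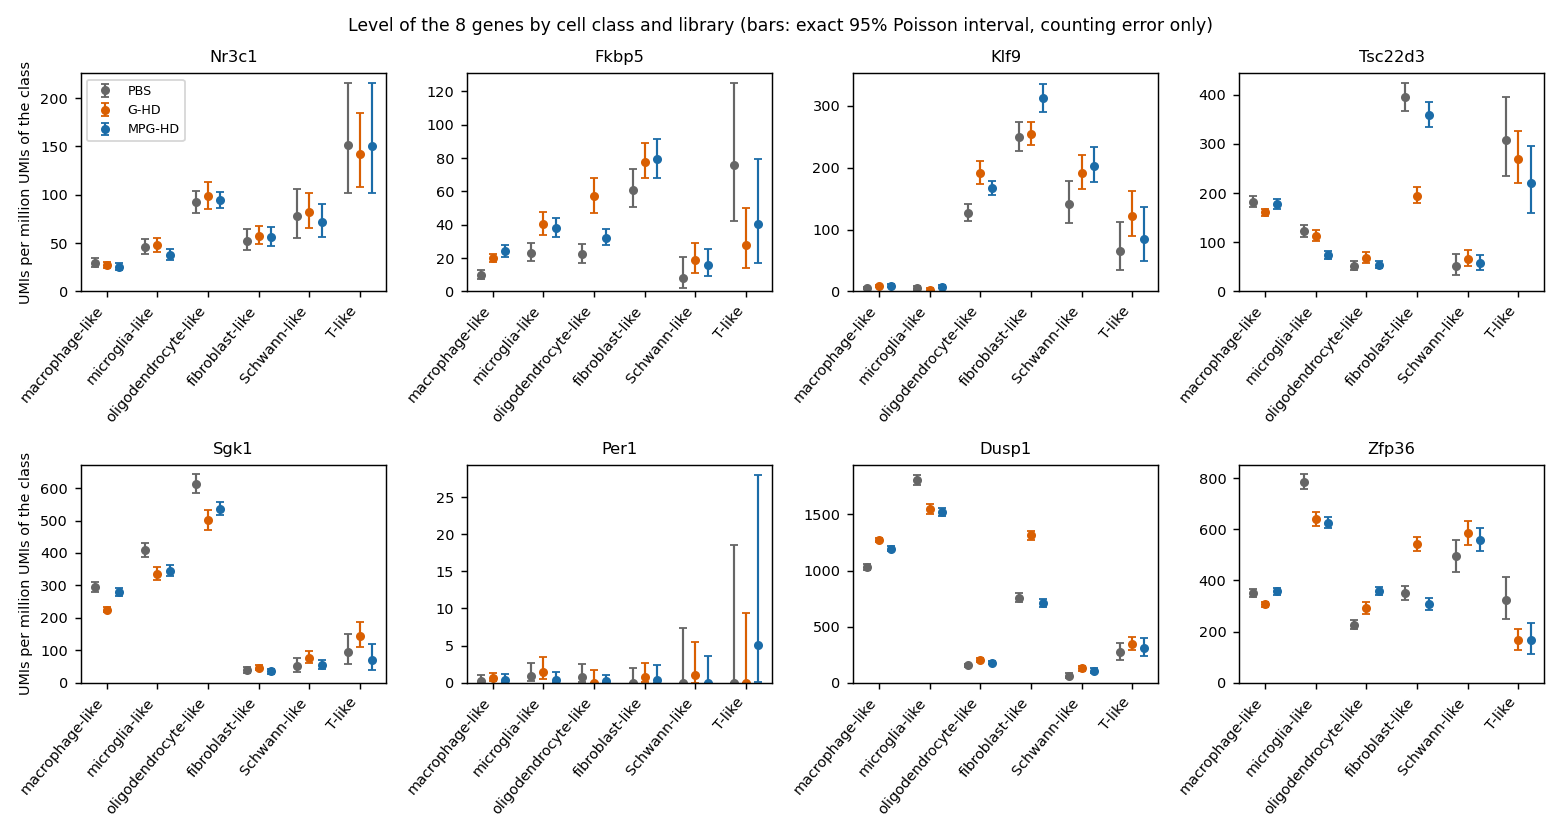
Level of the 8 genes (CPM with exact 95% counting interval, 1 panel per gene) in 6 cell classes of the PBS, G-HD and MPG-HD libraries, 1 library each. Fkbp5 in macrophage-like cells sits at 9.90 CPM in PBS against 19.8 and 23.97 CPM in the treated libraries, while Nr3c1 shows intervals that overlap between libraries in most classes.

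The DNA just before the start of these genes gives the setting for their regulation. The 4 stretches below are those of Fkbp5, which holds no match to a searched motif, and of Klf9, Dusp1 and Zfp36, which do. The other members had no match in the 150 bases before a start and are not shown. Sequences are from RefSeq on build GRCr8, in which all 8 symbols matched, with 13 windows of 300 bases around annotated starts. Each line holds the 150 bases before 1 start, 5′ to 3′ on the gene's strand, and capitals mark the match to a searched motif.
Fkbp5, chr20:6543556-6543705 (minus strand): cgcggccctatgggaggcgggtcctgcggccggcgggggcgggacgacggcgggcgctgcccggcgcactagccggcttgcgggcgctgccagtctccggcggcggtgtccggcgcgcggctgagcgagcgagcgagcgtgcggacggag
Klf9, chr1:230126496-230126645 (plus strand): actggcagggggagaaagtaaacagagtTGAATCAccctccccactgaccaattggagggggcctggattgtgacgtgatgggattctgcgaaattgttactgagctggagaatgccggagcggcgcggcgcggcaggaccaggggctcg
Dusp1, chr10:17184703-17184852 (plus strand): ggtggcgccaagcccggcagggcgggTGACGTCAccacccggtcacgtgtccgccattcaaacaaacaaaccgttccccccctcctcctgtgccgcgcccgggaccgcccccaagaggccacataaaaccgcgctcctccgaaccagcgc
Zfp36, chr1:92799109-92799258 (minus strand): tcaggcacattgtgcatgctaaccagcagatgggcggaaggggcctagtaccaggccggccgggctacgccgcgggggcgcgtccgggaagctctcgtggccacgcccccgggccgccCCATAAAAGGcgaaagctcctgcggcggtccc
The palindromic glucocorticoid response element, searched on both strands as AGAACA, any 3 bases and TGTTCT, matched none of the 13 windows of these genes and 0.0149% of 33469 windows of the same length over all genes. Its half-site AGAACA was likewise in none of the 13, and in 20.7% of all windows. The cyclic AMP response element TGACGTCA, in 1.83% of all windows, lay 124 to 117 bases before the start of Dusp1. The AP-1 element TGANTCA, in 7.33% of all windows, lay 122 to 116 bases before the start of Klf9 and 25 to 31 bases after 1 of 3 starts of Sgk1. The serum response element, in 1.64% of all windows, matched Zfp36 from 32 to 23 bases before the start, where its letters overlap a TATA-like run. A match is a description of letters, not a bound site, and the absence of one speaks only for this window.

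Nr3c1, the receptor gene through which all these genes would be driven by a glucocorticoid, was read in every class and library, within 1.5-fold of PBS in both treatments in the 6 larger classes. It stood at 29.3 (24.96–34.2), 27.0 and 25.2 CPM in macrophage-like cells of PBS, G-HD and MPG-HD, the lowest of the 6 classes. Microglia-like cells held 45.9, 47.6 and 38.0 CPM, fibroblast-like cells 52.6, 57.5 and 56.3 CPM, and Schwann-like cells 77.6, 82.2 and 72.2 CPM. Oligodendrocyte-like cells held 92.0, 98.5 and 94.5 CPM and T-like cells 151, 142 and 151 CPM, the highest class in each library. In PBS the classes from T-like down to microglia-like, with endothelial-like and precursor-like cells between them, formed a run in which each interval overlapped the next, and macrophage-like and neutrophil-like cells lay below it. The ratio of G-HD to PBS lay between 0.921 and 1.09 over the 6 classes and that of MPG-HD to PBS between 0.826 and 1.07, with none past the fold. The lowest ratio was that of MPG-HD to G-HD in microglia-like cells, 0.797 (0.642–0.991). With every cluster of the class weighing the same, the log2 ratio of MPG-HD to PBS in Schwann-like cells went from −0.10 to 0.58. Neutrophil-like cells had only 1, 11 and 4 UMIs of Nr3c1, too few to compare.

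Fkbp5, the co-chaperone that is among the most widely glucocorticoid-induced genes, was the member with the broadest difference from PBS. In macrophage-like cells it was at 9.90 (7.44–12.9) CPM in PBS, 19.8 (17.4–22.5) CPM in G-HD and 23.97 (20.5–27.8) CPM in MPG-HD, from 54, 246 and 174 UMIs. Both treated libraries lay above PBS without overlap of the intervals, with ratios of 2.00 (1.49–2.74) and 2.42 (1.77–3.35), while the treated libraries overlapped each other, with a ratio of MPG-HD to G-HD of 1.21 (0.989–1.47). Microglia-like cells gave 23.0 (18.0–28.8), 40.4 (33.8–47.8) and 38.2 (32.9–44.0) CPM, with ratios to PBS of 1.76 (1.31–2.37) and 1.66 (1.26–2.20), and again no overlap with PBS. In oligodendrocyte-like cells the levels were 22.5 (17.3–28.7), 57.0 (47.2–68.3) and 32.3 (27.7–37.5) CPM. Here G-HD stood apart from both others, at 2.54 (1.85–3.50) times PBS, and MPG-HD stood between, at 1.44 (1.07–1.95) times PBS and 0.567 (0.446–0.723) times G-HD.

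Fkbp5 differed less in fibroblast-like cells, rested on few UMIs in Schwann-like cells and was lower in the treated libraries in T-like cells. Fibroblast-like cells held 61.1 (50.5–73.4), 77.8 and 79.3 CPM, ratios of 1.27 (1.01–1.61) and 1.30 (1.02–1.65) that stayed within the fold. Schwann-like cells had 4, 19 and 16 UMIs, with ratios of 2.34 (0.776–9.44) and 1.99 (0.641–8.17) whose intervals include 1. T-like cells had 15, 11 and 8 UMIs, or 75.6, 28.0 and 40.2 CPM, with ratios of 0.370 (0.154–0.861) and 0.531 (0.195–1.33). Endothelial-like cells were at 24.5, 52.8 and 36.5 CPM, oligodendrocyte precursor-like cells had 1, 11 and 4 UMIs, and neutrophil-like cells had 16 UMIs in G-HD and none in the other libraries. In PBS, T-like and fibroblast-like cells had the highest levels and overlapped each other, followed by endothelial-like, microglia-like and oligodendrocyte-like cells, which did not differ beyond their intervals. Over all cells Fkbp5 was at 22.9, 35.9 and 35.1 CPM, ratios to PBS of 1.57 (1.39–1.78) and 1.54 (1.36–1.74).

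The difference in Fkbp5 was also read inside single clusters, where the make-up of a class plays a smaller part. The ratio of G-HD to PBS was above 1 in 13 of 14 measured clusters, with 12 past the fold and a range of 0.448 to 3.86, the exception being T-like cluster 9. The ratio of MPG-HD to PBS was above 1 in 13 of 13 measured clusters, with 7 past the fold and a range of 1.06 to 2.91. T-like cluster 9 is not among these, since its 10 and 8 UMIs fell under the minimum of 20, and its ratio of MPG-HD to PBS was 0.737 (0.253–2.07). Among all genes measured in at least 11 clusters, 2.5% of 4365 and 1.52% of 4212 were above 1 in all or all but 1 of them in these comparisons. In the macrophage-like clusters 0 (led by Mmp12 and Fabp4), 3 (C1q genes) and 6 (class II genes), the ratios of G-HD to PBS were 1.80, 2.74 and 2.17, and those of MPG-HD to PBS 1.96, 2.91 and 2.68. In microglia-like cluster 1 they were 1.58 and 1.48, and in the interferon-led cluster 4 they were 2.48 and 2.42. Oligodendrocyte-like clusters 5, 11 and 14 gave 2.67, 3.86 and 1.74 for G-HD and 1.42, 1.64 and 1.45 for MPG-HD. Fibroblast-like cluster 10 held Fkbp5 at 97.9 (78.7–120), 169 (136–208) and 123 (103–145) CPM, so that only G-HD lay clear of PBS there.

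The share of cells with at least 1 Fkbp5 UMI was lowest in PBS in the 3 classes given here. Macrophage-like cells had a share of 12.8% in PBS, 25.8% in G-HD and 26.8% in MPG-HD at median depths of 15344, 16430.5 and 14958.5 UMIs. With every cell thinned to 2000 UMIs, which left out 7, 16 and 15 shallower cells, the shares were 2.38% (1.03–4.64), 5.46% (3.89–7.42) and 5.54% (3.62–8.07). In microglia-like cells the shares were 21.0%, 32.1% and 36.5%, and thinned 5.60%, 8.80% and 6.65%, and in oligodendrocyte-like cells 21.9%, 42.0% and 32.4%, and thinned 3.83%, 9.93% and 5.44%. The intervals of PBS and the treated libraries overlap in all 3 classes once thinned. No class here should lack Fkbp5 altogether, so no share in a class without the gene can be set beside these as a background for free RNA. Macrophage-like cells, the largest class, held Fkbp5 at a lower CPM than oligodendrocyte-like cells in every library, and fibroblast-like cells at a higher one. The part of free RNA in these levels was not tested.

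**Figure D2:**
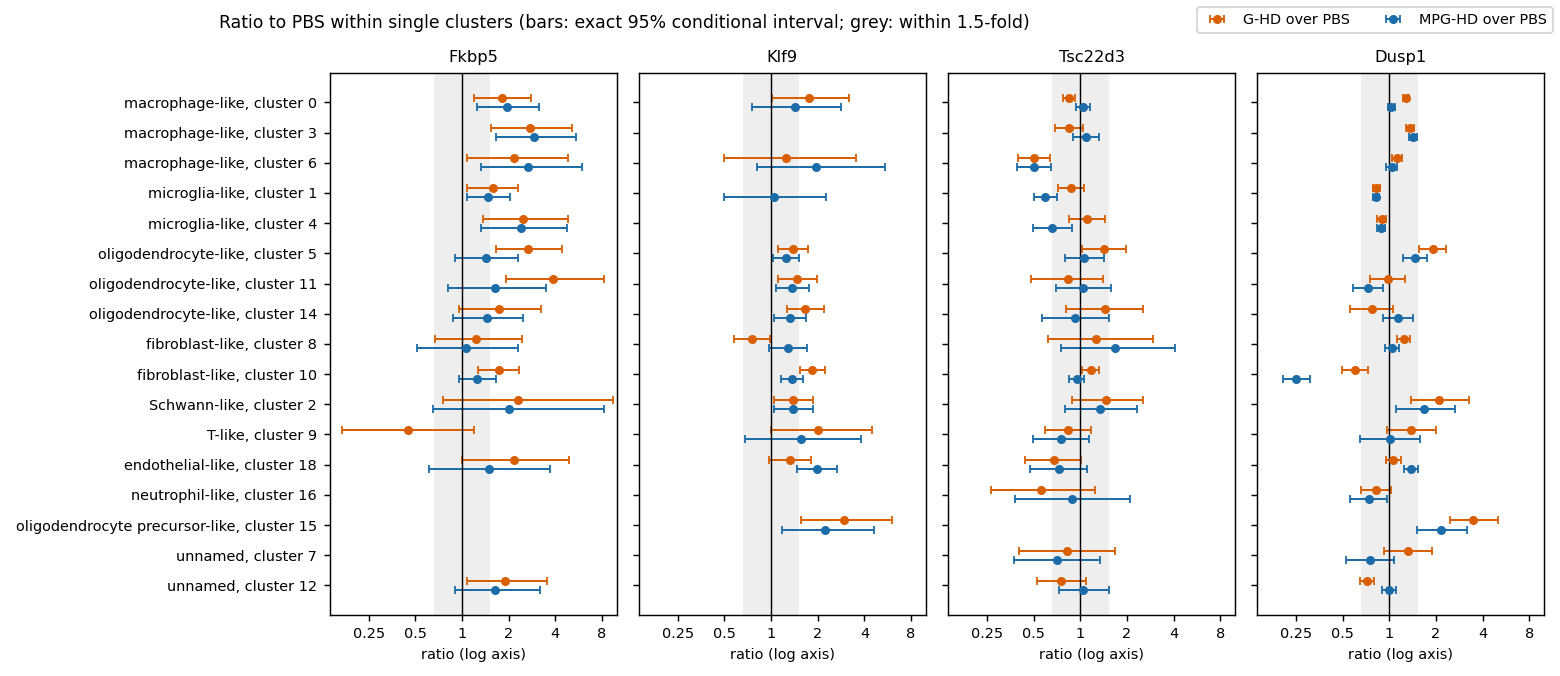
Ratio to PBS of Fkbp5, Klf9, Tsc22d3 and Dusp1 within single clusters (log axis, exact 95% counting intervals, 1 point per cluster and treated library). Fkbp5 lies above 1 in 13 of 14 clusters for G-HD and 13 of 13 for MPG-HD, whereas Tsc22d3 scatters around 1.

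Klf9, a Krüppel-like transcription factor induced by glucocorticoid and thyroid hormone, was past the fold upward in macrophage-like, oligodendrocyte-like and T-like cells and downward in microglia-like cells in G-HD, and upward in macrophage-like cells in MPG-HD. Without a fold limit it was above PBS in MPG-HD in 6 of 6 classes, with ratios of 1.251 to 1.78, where 7.22% of all genes measured in the 6 classes were above 1 in all, and in G-HD in 5 of 6. By the same count Sgk1 was below PBS in MPG-HD in 5 of 6. Macrophage-like cells held 4.95, 8.79 and 8.82 CPM, from 27, 109 and 64 UMIs, a ratio to PBS of 1.78 (1.16–2.82) in G-HD and of 1.78 (1.12–2.91) in MPG-HD. Oligodendrocyte-like cells, in which Klf9 was far more abundant, held 127, 191 and 166 CPM, with ratios of 1.51 (1.30–1.74) and 1.31 (1.16–1.49). Schwann-like cells held 141, 191 and 203 CPM (1.35, 1.02–1.80, and 1.44, 1.09–1.91). In each of these classes both treated libraries were the higher ones and did not differ from each other by more than the fold.

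In fibroblast-like cells, the class with the highest PBS level, Klf9 was at 249, 255 and 312 CPM, with a ratio of G-HD to PBS of 1.02 (0.908–1.15), and MPG-HD was slightly higher (1.251, 1.11–1.41). Microglia-like cells had few UMIs, 16, 10 and 36, and were the class in which G-HD was lower than PBS, 0.607 (0.246–1.42), against 1.45 (0.783–2.80) for MPG-HD. T-like cells stood at 65.5, 122 and 85.4 CPM with intervals of both ratios that include 1. Among the smaller classes, oligodendrocyte precursor-like cells were at 43.8, 129 and 98.1 CPM, 2.94 (1.56–6.00) and 2.24 (1.17–4.63) times PBS, and endothelial-like cells at 167, 221 and 329 CPM, 1.32 (0.965–1.82) and 1.97 (1.46–2.67) times PBS. Within clusters Klf9 was above 1 in 10 of 11 for G-HD, with 5 past the fold, and in 12 of 12 for MPG-HD, with 4 past the fold. Among all genes measured in at least 11 clusters, 2.5% and 1.52% were above 1 in all or all but 1. By level in PBS, fibroblast-like cells stood above endothelial-like, Schwann-like and oligodendrocyte-like cells, which overlapped, then came T-like and precursor-like cells, and microglia-like, macrophage-like and neutrophil-like cells were lowest.

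Tsc22d3, which encodes the anti-inflammatory leucine zipper protein GILZ and is a classic marker of glucocorticoid action in leukocytes, did not share the direction of Fkbp5 in every class. In both treated libraries it was below PBS in macrophage-like, microglia-like and fibroblast-like cells, where Fkbp5 was above. In oligodendrocyte-like, Schwann-like and T-like cells it lay on the same side of PBS as Fkbp5. Macrophage-like cells, where it was abundant, held 183, 161 and 178 CPM, ratios to PBS of 0.881 (0.817–0.952) and 0.972 (0.894–1.06). Microglia-like cells held 122, 114 and 73.5 CPM. There MPG-HD was the low library, at 0.601 (0.520–0.695) times PBS and 0.647 (0.559–0.749) times G-HD, while G-HD was close to PBS at 0.929. Oligodendrocyte-like cells were at 52.4, 67.6 and 54.6 CPM, Schwann-like cells at 51.8, 66.6 and 57.4 CPM and T-like cells at 308, 269 and 221 CPM, all within the fold of PBS. The Schwann-like values depend on the processing: the log2 ratios of 0.36 in G-HD and 0.15 in MPG-HD went to 2.24 and 1.91 with cells thinned to 2000 UMIs, and to −0.31 and −0.98 with every cluster weighing the same. The PBS order of the classes ran from fibroblast-like and T-like cells, which overlapped, through macrophage-like, neutrophil-like, endothelial-like and microglia-like cells, each overlapping the next, to oligodendrocyte-like and Schwann-like cells and last the precursor-like cells.

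In fibroblast-like cells Tsc22d3 was at 395 (367–424) CPM in PBS, 195 (179–212) in G-HD and 359 (335–384) in MPG-HD, a ratio of G-HD to PBS of 0.494 (0.441–0.553) and of MPG-HD to G-HD of 1.84 (1.65–2.06). Clusters 10 and 8 of this class differed widely in Tsc22d3 and took different shares of the class in each library. Cluster 10, led by Smoc2, Igfbp5 and Alpl, held 680 (628–736), 797 (723–878) and 644 (598–693) CPM, and cluster 8, led by Igf2, A2m and Igfbp7, held 24.9, 31.7 and 41.7 CPM, from 9, 46 and 24 UMIs. Cluster 10 had 54, 49 and 81 cells and cluster 8 had 34, 126 and 47. Within cluster 10 the ratios to PBS were 1.17 (1.03–1.33) and 0.947, and within cluster 8 they were 1.27 and 1.68. The low class level of G-HD was thus absent inside both clusters. In macrophage-like cluster 6, by contrast, both treated libraries were lower inside the cluster, at 119 and 118 CPM against 235 CPM, ratios of 0.506 (0.399–0.641) and 0.504 (0.390–0.649). Over all measured clusters Tsc22d3 was above 1 in 6 of 16 for G-HD, with 0 higher and 2 lower past the fold, and in 7 of 16 for MPG-HD, with 1 higher and 3 lower.

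Sgk1, the serum- and glucocorticoid-regulated kinase, was lower in both treated libraries in oligodendrocyte-like, microglia-like and macrophage-like cells, by less than the fold. Oligodendrocyte-like cells had the highest PBS level, 612 CPM, against 500 and 536 CPM in G-HD and MPG-HD, ratios of 0.817 (0.756–0.884) and 0.876 (0.824–0.930). Microglia-like cells held 409, 336 and 345 CPM (0.821, 0.757–0.889, and 0.843, 0.784–0.906). Macrophage-like cells held 295, 226 and 278 CPM, with ratios of 0.765 (0.719–0.814) and 0.944. The smaller classes in which it was also abundant were at 332, 382 and 273 CPM (endothelial-like), with G-HD above PBS at 1.15 (0.914–1.45) and MPG-HD below at 0.822 (0.629–1.07), and at 365, 345 and 276 CPM (precursor-like). Fibroblast-like cells were at 38.8, 46.3 and 35.1 CPM and Schwann-like cells at 51.8, 77.4 and 54.4 CPM, within the fold. With every cluster weighing the same, the log2 ratio of G-HD to PBS went from 0.26 to −0.41 in fibroblast-like cells and from 0.58 to −0.11 in Schwann-like cells, and that of MPG-HD to PBS in Schwann-like cells from 0.07 to −1.09. T-like cells were at 95.8, 145 and 70.3 CPM, where the ratio of G-HD to PBS was 1.51 (0.886–2.69) and that of MPG-HD to G-HD 0.485 (0.250–0.882). Within clusters Sgk1 was above 1 in 3 of 16 for G-HD and in 1 of 17 for MPG-HD. Among all genes measured in at least 11 clusters, 2.18% of 4212 were at or below 1 in all or all but 1 for MPG-HD. In PBS oligodendrocyte-like cells lay above all other classes, then microglia-like, precursor-like, endothelial-like and macrophage-like cells, each overlapping the next, and T-like, Schwann-like, fibroblast-like and neutrophil-like cells formed a lower overlapping run.

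Per1, the period gene that glucocorticoids use to set peripheral clocks, was barely detected. It had 9, 21 and 9 UMIs over all cells of PBS, G-HD and MPG-HD, or 0.569, 0.816 and 0.382 CPM, and was not measured in any of the 6 classes. Over all cells the ratio of G-HD to PBS was 1.43 (0.630–3.56), so a difference was not detectable at this depth. Of the other 16 clock genes, the output gene Dbp, which glucocorticoids and the clock both act on, had the most UMIs, 1972 over all cells, followed by Per3 (893), Bhlhe40 (771) and Clock (628). Over the list, 2 of 13 measured clock genes were higher and 1 lower in G-HD and 2 of 12 higher and 2 lower in MPG-HD in macrophage-like cells, 2 of 8 and 1, and 2 of 10 and 0, in microglia-like cells, and 1 of 10 and 0, and 1 of 12 and 3, in oligodendrocyte-like cells. Dbp was at 1.34 (1.12–1.61) times PBS in G-HD and 1.201 times in MPG-HD in macrophage-like cells, and at 1.33 and 1.39 (1.04–1.88) in microglia-like cells, and at 0.837 (0.556–1.247) and 1.18 (0.885–1.60) in oligodendrocyte-like cells. Per3 was at 1.204 and 2.06 (1.196–3.68) in macrophage-like cells and at 1.74 and 1.93 (1.13–3.44) in microglia-like cells, and at 1.27 (0.746–2.16) and 1.13 (0.730–1.77) in oligodendrocyte-like cells.

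**Figure D3:**
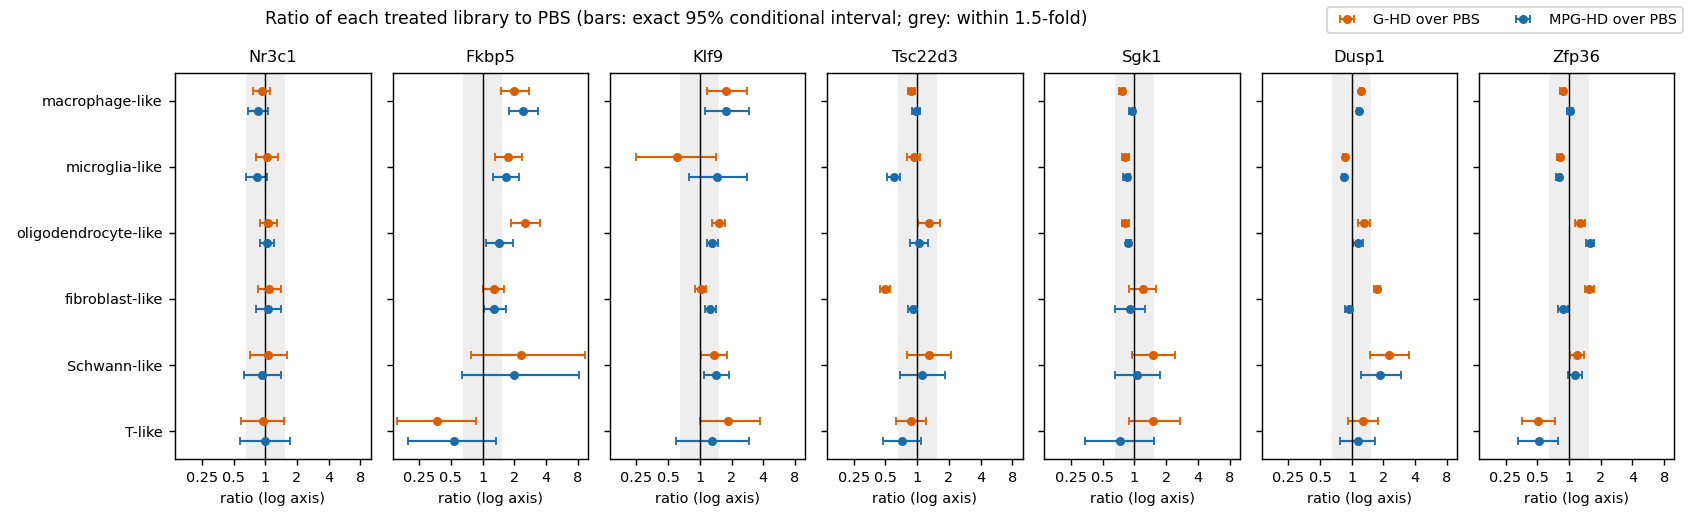
Ratio to PBS (log axis, exact 95% counting intervals) of 7 of the 8 genes in 6 cell classes for G-HD and MPG-HD, with the band within 1.5-fold in grey. Nr3c1 stays inside the band in every class, and Fkbp5 lies above it in macrophage-like and microglia-like cells for both treatments.

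Dusp1, the phosphatase that switches off p38 and JNK, was higher in the treated libraries in macrophage-like cells and lower in microglia-like cells. Macrophage-like cells held 1028, 1270 and 1196 CPM, ratios to PBS of 1.23 (1.198–1.27) and 1.16 (1.12–1.202), while microglia-like cells held 1806, 1546 and 1519 CPM, ratios of 0.856 (0.824–0.889) and 0.841 (0.813–0.870). These intervals exclude 1 but the ratios stayed within the fold. Past the fold were Schwann-like cells, at 57.7, 129 and 108 CPM (29, 132 and 109 UMIs), with 2.24 (1.49–3.47) and 1.87 (1.23–2.92), and oligodendrocyte precursor-like cells, at 139, 481 and 298 CPM, with 3.46 (2.45–5.02) and 2.15 (1.498–3.16). With cells thinned to 2000 UMIs, the Schwann-like log2 ratio of G-HD to PBS went from 1.16 to 0.31 and that of MPG-HD to G-HD from −0.26 to 0.52, and with every cluster weighing the same the log2 ratios to PBS went from 1.16 to 1.99 in G-HD and from 0.90 to 1.87 in MPG-HD. Oligodendrocyte-like cells were at 156, 204 and 179 CPM and T-like cells at 272, 346 and 311 CPM. MPG-HD was below G-HD in 6 of 6 classes. Of 2528 genes measured in all 6 for this comparison, 7.79% were below 1 in all and 2.89% above. The order did not hold under every setting. Besides the thinned Schwann-like value, the log2 ratio of MPG-HD to G-HD in T-like cells went from −0.15 to 0.70 with equal cluster weights. That in microglia-like cells reached 0.02. Among classes in PBS, microglia-like, neutrophil-like and endothelial-like cells overlapped at the top, followed without overlap by macrophage-like, fibroblast-like and T-like cells, then by oligodendrocyte-like and precursor-like cells together and by Schwann-like cells.

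Fibroblast-like cells held Dusp1 at 759, 1312 and 708 CPM, a ratio of G-HD to PBS of 1.73 (1.63–1.84) and of MPG-HD to G-HD of 0.540 (0.509–0.573). Cluster 8, which made up most of the class in G-HD only, held 1513, 1867 and 1567 CPM, ratios to PBS of 1.23 and 1.04. Cluster 10 held 474, 284 and 119 CPM, ratios of 0.599 (0.494–0.724) and 0.251 (0.205–0.306). Inside cluster 10 the treated libraries were thus both lower than PBS, opposite to the class ratio of G-HD.

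Zfp36, the messenger RNA decay factor, was past the fold in T-like, fibroblast-like and oligodendrocyte-like cells among the 6 larger classes. T-like cells held 323, 165 and 166 CPM, ratios to PBS of 0.512 (0.357–0.735) and 0.514 (0.327–0.794), so both treated libraries were low, with a ratio of MPG-HD to G-HD of 1.00. Fibroblast-like cells held 349, 543 and 306 CPM, with G-HD high at 1.56 (1.42–1.71), but within clusters 8 and 10 the ratios of G-HD to PBS were 1.05 and 1.03. Oligodendrocyte-like cells held 227, 291 and 359 CPM, ratios of 1.28 (1.14–1.43) and 1.58 (1.44–1.73). Macrophage-like cells were at 351, 306 and 358 CPM, microglia-like cells at 786, 639 and 626 CPM and Schwann-like cells at 494, 584 and 558 CPM, all within the fold. Endothelial-like cells, the class with the highest PBS level, were at 1278, 1232 and 1892 CPM. Precursor-like cells were at 321, 511 and 603 CPM, ratios of 1.59 (1.24–2.05) and 1.88 (1.47–2.41), and neutrophil-like cells at 378, 143 and 390 CPM, with G-HD at 0.379 (0.243–0.607) of PBS from 28, 77 and 22 UMIs.

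Dusp1 and Zfp36 are themselves immediate early genes, and the other genes of that group are given here for comparison. Over 18 sums of a class and a library, centred within each class, the correlation with the mean of 18 immediate early genes was 0.84 for Zfp36 and 0.65 for Dusp1, against 0.49 for Nr3c1, 0.48 for Fkbp5, 0.19 for Sgk1, −0.05 for Per1, −0.06 for Klf9 and −0.16 for Tsc22d3. These points share libraries and depth, and the values are descriptions. Of 18 immediate early genes measured in fibroblast-like cells, 8 were past the fold upward in G-HD and 0 downward relative to PBS, where 13.8% and 10.8% of all measured genes were, among them Btg2 at 2.21, Fos at 1.82, Jun at 1.80 and Junb at 1.74, and 0 were higher and 11 lower in MPG-HD than in G-HD (7.02% and 15.4% of all genes). Against PBS, MPG-HD had 1 higher and 3 lower (6.26% and 11.1%). In Schwann-like cells 5 of 17 were higher and 1 lower in G-HD (11.9% and 9.08%), and 0 higher and 2 lower in MPG-HD (8.81% and 10.6%). In oligodendrocyte-like cells 7 of 15 were higher in G-HD and 4 of 16 in MPG-HD, with none lower (7.55% and 4.9% of all genes higher), Fos at 1.30 and 1.45 and Btg2 at 1.69 and 1.75. In T-like cells 4 of 15 were lower and none higher in G-HD (11.5% of all genes lower), with Fos at 0.525, and 1 of 13 was lower in MPG-HD. In macrophage-like cells none of 18 was past the fold in G-HD and 3 were lower in MPG-HD, and in microglia-like cells 1 of 19 was higher in G-HD, and 1 of 20 higher and 2 lower in MPG-HD.

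Heat shock genes, another group induced by dissociation, were past the fold mostly downward in G-HD. Relative to PBS, 3 of 8 were lower in macrophage-like (8.25% of all genes), 4 of 8 in microglia-like (7.11%), 2 of 8 in fibroblast-like (10.8%), 2 of 8 in Schwann-like (9.08%) and 3 of 5 in T-like cells (11.5%), with 0 higher, and 1 was higher and 2 lower of 8 in oligodendrocyte-like cells (7.55% and 6.79%). In MPG-HD 1 was higher and 2 lower in macrophage-like, 0 and 2 in microglia-like, 0 and 0 in oligodendrocyte-like, 0 and 1 in fibroblast-like, 1 and 1 in Schwann-like and 0 and 3 in T-like cells. The co-chaperone Dnajb1 was lower in G-HD than in PBS in 6 of 6 classes, with ratios of 0.498 (microglia-like) to 0.598 (oligodendrocyte-like), and was the only gene of all lists past the fold in every class. Its ratios of MPG-HD to PBS ranged from 0.497 in Schwann-like to 0.847 in oligodendrocyte-like cells. The summed macrophage markers in other classes also differed between libraries, but not in 1 direction. The set includes Fn1, which was at 36.0 CPM in macrophage-like cells against 259 CPM in all other cells. A sum in another class can therefore hold RNA that is not from macrophages. Their summed level in oligodendrocyte-like cells was 357, 626 and 330 CPM, with 11 of 12 above PBS in G-HD and 6 of 12 in MPG-HD. In Schwann-like cells it was 1097, 1516 and 1300 CPM, with 7 of 12 higher in G-HD and 3 of 12 in MPG-HD. In fibroblast-like cells the sum was lower in G-HD, at 2104, 1917 and 2060 CPM, with 7 of 12 markers higher in G-HD and 8 of 12 in MPG-HD. In macrophage-like cells themselves the sum was 30237, 36615 and 25086 CPM. The part of this signal in the ratios of Dusp1 and Zfp36 in oligodendrocyte-like and Schwann-like cells was not tested.

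Counted by class, at most 2 members were past the fold in each direction, and their direction was not uniform. Where 2 of 7 were higher, that was a larger share than over all measured genes, though 1 gene weighs heavily among 7. In G-HD more were higher than lower in macrophage-like, oligodendrocyte-like, fibroblast-like and Schwann-like cells, and as many in microglia-like and T-like cells. Per1 was never measured, so the counts are out of 7, except for 6 in T-like cells of MPG-HD set against G-HD. In macrophage-like cells 2 members, Fkbp5 and Klf9, were higher in G-HD and the same 2 in MPG-HD than in PBS, with 0 lower, where 7.58% and 5.34% of all measured genes were higher and 8.25% and 7.86% lower. In microglia-like cells 1 was higher (Fkbp5) and 1 lower (Klf9) in G-HD, and 1 higher (Fkbp5) and 1 lower (Tsc22d3) in MPG-HD, beside 7.94% higher and 7.11% lower, and 5.78% and 7.55%, of all genes. In oligodendrocyte-like cells 2 were higher in G-HD (Fkbp5 and Klf9) and 1 in MPG-HD (Zfp36) with 0 lower, beside 7.55% and 6.79%, and 4.9% and 8.66%.

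In fibroblast-like cells 2 members were higher (Dusp1 and Zfp36) and 1 lower (Tsc22d3) in G-HD and 0 in MPG-HD, beside 13.8% and 10.8%, and 6.26% and 11.1%, of all genes. In Schwann-like cells 2 were higher in G-HD and 2 in MPG-HD (Fkbp5 and Dusp1 in each), beside 11.9% and 9.08%, and 8.81% and 10.6%. In T-like cells 2 were higher (Sgk1 and Klf9) and 2 lower (Fkbp5 and Zfp36) in G-HD, and 2 lower (the same) in MPG-HD, beside 15.1% and 11.5%, and 10.5% and 13.6%. Between the treated libraries, MPG-HD had 0 members past the fold against G-HD in macrophage-like cells (4.84% higher and 7.26% lower over all genes) and 0 in Schwann-like cells (5.51% and 9.95%). It had 1 higher (Klf9) and 1 lower (Tsc22d3) in microglia-like cells (4.84% and 8.16%), 1 lower (Fkbp5) in oligodendrocyte-like cells (3.96% and 8.91%), 1 higher (Tsc22d3) and 2 lower (Dusp1 and Zfp36) in fibroblast-like cells (7.02% and 15.4%) and 1 lower (Sgk1) in T-like cells (10.2% and 15.3%).

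Medians over the members differed in sign between classes. The median log2 ratio of G-HD to PBS was −0.12 in macrophage-like, −0.22 in microglia-like, 0.37 in oligodendrocyte-like, 0.26 in fibroblast-like, 0.43 in Schwann-like and −0.09 in T-like cells. For MPG-HD to PBS it was 0.03, −0.25, 0.20, −0.10, 0.18 and −0.45 in the same order. Medians over all measured genes lay between −0.12 and 0.04 in all comparisons. In the same order, 3, 2, 6, 6, 7 and 3 of 7 members were above PBS in G-HD, and 4, 2, 6, 3, 6 and 2 in MPG-HD. The medians of the members' interval bounds for G-HD were 0.19 and 0.59 in oligodendrocyte-like and −0.08 and 1.07 in Schwann-like cells. In oligodendrocyte-like cells 5 intervals in G-HD and 4 in MPG-HD lay wholly above PBS, and 1 below in each. Across the 6 classes, no member was past the fold in 1 direction in all. Of 2503 genes measured in all 6 classes for G-HD and PBS, 8.19% were above 1 in all and 5.47% below, and of 1855 for MPG-HD and PBS, 7.22% and 6.79%. Over the 28 pairs of members, the median correlation of levels centred within each class was 0.10, with a range of −0.46 to 0.46 and 18 pairs above 0.

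**Figure D4:**
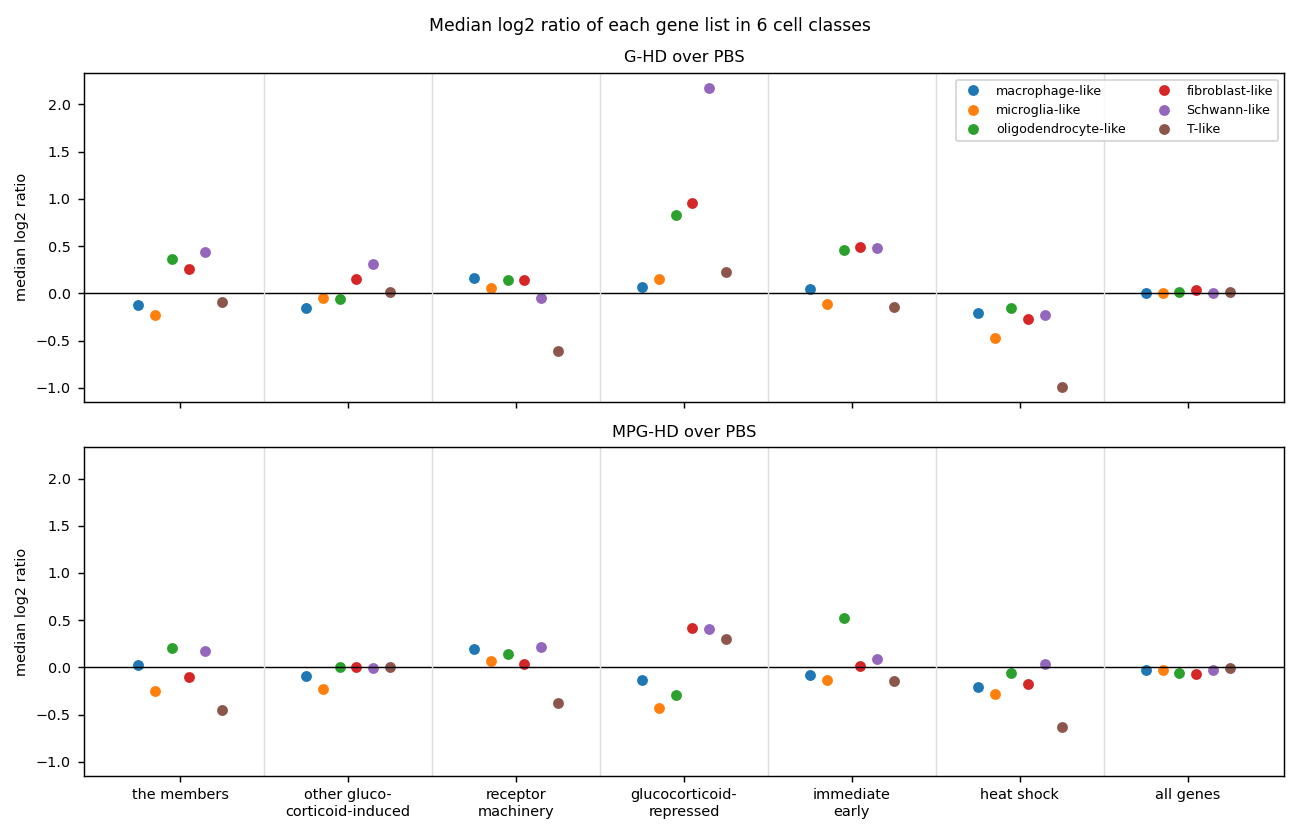
Median log2 ratio to PBS of the 8 genes, the related lists and all measured genes in 6 cell classes, with a panel for G-HD and a panel for MPG-HD. The members' median runs from −0.22 to 0.43 in G-HD and from −0.45 to 0.20 in MPG-HD, and all measured genes lie near 0.

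Other genes known to rise with glucocorticoids, 30 in a list that shares none with the members, did not move one way in all classes either. In macrophage-like cells 3 of 24 measured were higher and 3 lower in G-HD (7.58% and 8.25% of all genes). There 4 of 24 were higher and 2 lower in MPG-HD (5.34% and 7.86%), and the medians in G-HD and MPG-HD were −0.15 and −0.09. In microglia-like cells 3 of 23 were higher and 3 lower (7.94% and 7.11%), and 2 of 22 higher and 5 lower (5.78% and 7.55%), with medians of −0.05 and −0.23. In oligodendrocyte-like cells these were 2 of 17 and 2 (7.55% and 6.79%), and 1 of 16 and 2 (4.9% and 8.66%), with medians of −0.06 and 0.008. Fibroblast-like cells had 8 of 24 higher and 3 lower in G-HD (13.8% and 10.8%) and 3 of 22 and 2 in MPG-HD (6.26% and 11.1%), with medians of 0.15 and 0.005. Schwann-like cells had 6 of 16 and 2 (11.9% and 9.08%), and 3 of 15 and 5 (8.81% and 10.6%), with medians of 0.31 and −0.005. In G-HD the share that was higher was thus above that of all genes in both of these classes. T-like cells had 1 of 9 and 1 (15.1% and 11.5%), and 0 of 8 and 0 (10.5% and 13.6%), with medians of 0.01 and 0.004. The NF-kB inhibitor Nfkbia stayed within the fold of PBS in these classes, at 1.16 and 1.04 in macrophage-like, 1.06 and 0.816 in microglia-like, 1.46 and 1.05 in fibroblast-like and 1.43 and 1.35 in Schwann-like cells. Glul, glutamine synthetase, was higher in G-HD alone in fibroblast-like (1.55 against 0.958) and Schwann-like cells (1.76 against 0.932). Anxa1, a mediator of the anti-inflammatory action of glucocorticoids, was at 1.11 and 0.812 in macrophage-like cells and at 2.10 and 1.92 in Schwann-like cells. Ptgds, a prostaglandin D synthase abundant in fibroblast-like and oligodendrocyte-like cells, was at 4.56 (3.58–5.90) in G-HD and 1.37 (1.02–1.85) in MPG-HD in macrophage-like cells, at 13.2, 60.2 and 18.0 CPM, against 7077 to 8999 CPM in fibroblast-like cells. Zbtb16, a gene strongly induced by glucocorticoids in many cells, was singled out after its values were seen: it had 13, 28 and 43 UMIs in oligodendrocyte-like cells, ratios of 2.92 (1.46–6.14) and 1.75 (0.925–3.55).

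Few genes of the receptor's own machinery were past the fold outside T-like cells. Of the measured genes for chaperones, co-regulators and steroid-converting enzymes, 0 of 11 in macrophage-like, 1 of 10 in microglia-like and 1 of 9 in oligodendrocyte-like cells were higher in G-HD and none lower, and 1 of 11, 1 of 11 and 0 of 9 in MPG-HD. In Schwann-like cells 2 of 11 were higher and 1 lower in G-HD, and 1 of 10 higher and 1 lower in MPG-HD. In fibroblast-like cells the 1 gene past the fold in G-HD was Hsd11b1, which regenerates active glucocorticoid from its inactive form, at 2.94 (2.52–3.45). Naming it was a choice outside the rule for named genes given below, since other counts of 1 stay unnamed. Most fibroblast-like cells of G-HD lay in cluster 8, and Hsd11b1 was not read inside single clusters. In microglia-like cells Hsd11b1 had 3, 9 and 22 UMIs in PBS, G-HD and MPG-HD, or 0.931, 2.71 and 4.40 CPM. In T-like cells 4 of 8 were lower in G-HD, Stip1 at 0.239, Hsp90aa1 at 0.303, Ptges3 (p23) at 0.552 and Hspa8 at 0.558, and 1 of 7 in MPG-HD, Hspa8 at 0.619. The T-like sums are small, from 50 cells in PBS.

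Inflammatory genes that glucocorticoids are known to repress were not lower throughout in either treated library. In G-HD more were higher than lower past the fold in microglia-like, oligodendrocyte-like, fibroblast-like and Schwann-like cells. In microglia-like cells 5 of 14 were higher and 2 lower in G-HD (7.94% and 7.11% of all genes), with a median of 0.16. There 1 of 12 was higher and 4 lower in MPG-HD (5.78% and 7.55%), with a median of −0.43. MPG-HD against G-HD had 0 higher and 6 lower of 14 (4.84% and 8.16%). Il1b was at 1656, 2223 and 1387 CPM there, ratios to PBS of 1.34 (1.30–1.39) and 0.838 (0.808–0.868), and the chemokine Cxcl2 at 2610, 2718 and 2091 CPM, 1.04 and 0.801 (0.778–0.824). In macrophage-like cells 1 of 13 was higher and 2 lower in G-HD (7.58% and 8.25%), and 3 higher and 3 lower in MPG-HD (5.34% and 7.86%), with medians of 0.07 and −0.13. There Il1b was at 1.41 and 1.13, Cxcl1 at 1.096 and 0.823 and Ccl3 at 1.01 and 1.32. In fibroblast-like cells 6 of 11 were higher and 1 lower in G-HD (13.8% and 10.8%) and 4 of 10 and 1 in MPG-HD (6.26% and 11.1%), with medians of 0.95 and 0.41. Most fibroblast-like cells of G-HD lay in cluster 8, and these genes were not read inside single clusters. In Schwann-like cells these were 6 of 8 and 0 (11.9% and 9.08%), and 2 of 5 and 0 (8.81% and 10.6%), with medians of 2.17 and 0.41. Oligodendrocyte-like cells had 4 of 6 higher in G-HD (7.55% of all genes) and 0 of 6 higher and 2 lower in MPG-HD (4.9% and 8.66%), with medians of 0.83 and −0.29. Levels there were low, such as 20.3, 37.2 and 9.45 CPM for Cxcl2, in a class in which the macrophage markers above were also highest in G-HD. The part of those markers' cells in these counts was not tested.

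The genes whose levels followed those of Fkbp5, Tsc22d3 and Nr3c1 most closely were taken from 8885 genes by Pearson's r over the 18 sums of 6 classes and 3 libraries, as a description. For Fkbp5 they were Pdlim2 (0.835), Plcb4 (0.829) and Derl1 (0.820). For Tsc22d3 they were Ptger2 (0.925), LOC100909725 (0.919) and Clec2g (0.914). For Nr3c1 they were Hdac3 (0.952), Dgka (0.952) and Usp45 (0.949). None of these was another member.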

How the data were processed

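Single-cell RNA of 3 libraries (10x Genomics 3′ v3, per the labels' protocols) was analysed from the deposited counts of UMIs per gene and cell barcode, which are not normalized, per the file headers. Cell Ranger 3.0.2 with mouse builds (mm10, GRCm38) is named in the submitters' processing notes, the matrix header gives version 3.1.0, and the features carry rat identifiers. The rat build is not given in the sources used here.

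Deposited barcodes numbered 1513 in PBS, 2619 in G-HD and 2339 in MPG-HD, and their UMIs 16081082, 26289759 and 23988263. A cell needed 200 genes or more and no more than 20% mitochondrial UMIs, which 5815 had. Scrublet called 14 (0.241%) at an expected 6% and was taken as not having worked, but the called cells were removed. Clustering used 2000 variable genes without 118 listed genes, 30 components, 20 neighbours and Leiden at resolution 0.8 (Scanpy 1.11.5, leidenalg 0.10.2). Clusters were named from fixed markers. UMIs were summed per class and library, with exact Poisson and conditional 95% intervals (SciPy 1.17.1), and a sum of 0 stood at 3 UMIs. The ratio and its interval were tested on simulated counts with known fold changes. Those counts held counting error only, and filtering, clustering and naming were not part of that test.

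The members and lists were chosen with earlier results of these data known. Named genes were the 8 members, up to 4 genes per list with the most UMIs, list genes past the fold in every class, and the 3 genes most like Fkbp5, Tsc22d3 and Nr3c1 among those with at least 200 UMIs. Abcb1a, Abcb1b, Ier2 and Hspa1a had no matching symbol and were not analysed here. Promoter sequences are from RefSeq (GRCr8).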

Additional observations from a re-analysis of the deposited data

Results flagged for a closer look

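Several ratios were past the fold in opposite directions in different classes, and none of these differences between classes was tested. For Fkbp5 the ratio of G-HD to PBS was 2.54 in oligodendrocyte-like and 0.370 in T-like cells, a log2 difference of 2.78, and that of MPG-HD to PBS was 2.42 in macrophage-like and 0.531 in T-like cells, a difference of 2.19. The T-like values rest on 15, 11 and 8 UMIs. For Klf9 the ratio of G-HD to PBS was 1.86 in T-like and 0.607 in microglia-like cells, a difference of 1.62. For Tsc22d3 the ratio of MPG-HD to G-HD was 1.84 in fibroblast-like and 0.647 in microglia-like cells, a difference of 1.51, and the fibroblast-like value was not present within cluster 8 or 10. For Zfp36 the ratio of G-HD to PBS was 1.56 in fibroblast-like and 0.512 in T-like cells, a difference of 1.60, and that of MPG-HD to PBS was 1.58 in oligodendrocyte-like and 0.514 in T-like cells, a difference of 1.62.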

How the results depend on the processing

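Under the alternatives tried, chosen with the design except for leaving out single clusters (added after seeing the data), the members' median log2 ratio kept its value within its interval in 257 cases and moved in 4. In macrophage-like cells MPG-HD over PBS went from 0.03 to −0.0755 at resolution 1.2 and to −0.0657 without cluster 3. In microglia-like cells MPG-HD over G-HD went from −0.03 to −0.16 with cells thinned to 2000 UMIs. In oligodendrocyte-like cells G-HD over PBS went from 0.37 to 0.13 with every cluster weighing the same. With equal cluster weights Tsc22d3 in fibroblast-like cells reversed, from −1.02 to 0.0194 for G-HD over PBS and from 0.88 to −0.22 for MPG-HD over G-HD, and Zfp36 there went from 0.64 to 0.04 for G-HD over PBS and Dusp1 from −0.89 to −0.12 for MPG-HD over G-HD. The cause of these shifts was not tested. Of single ratios, 1690 stayed, 112 moved and 2 reversed. A ratio that crossed 1 was not by that alone counted as reversed. The side of 1 was kept in 238 of 242 cases for Fkbp5, 250 of 261 for Tsc22d3, 252 of 260 for Sgk1 and 251 of 258 for Klf9. It was kept in 251 of 261 cases for Dusp1, 244 of 261 for Zfp36 and 230 of 261 for Nr3c1. Ratios past 1.5-fold no longer were in 4 of 142 cases for Fkbp5, 9 of 58 for Tsc22d3, 3 of 28 for Sgk1, 13 of 87 for Klf9, 4 of 56 for Dusp1 and 10 of 71 for Zfp36. The calls lost most often were those of Klf9 for G-HD over PBS in oligodendrocyte-like cells, in 6 settings (0.59 to 0.53 at the lowest), and in microglia-like cells, in 5 (−0.72 to −0.20), of Tsc22d3 for MPG-HD over G-HD in microglia-like cells, in 5 (−0.63 to −0.23), and of Zfp36 for MPG-HD over PBS in oligodendrocyte-like cells, in 5 (0.66 to 0.31), and for G-HD over PBS in fibroblast-like cells, in 4. Over the 6 classes, 6 ratios of G-HD to PBS were past 2-fold and 15 past 1.5-fold, and 1 and 9 of MPG-HD to PBS. No paired analysis was possible because each treatment has 1 library, and for the same reason none could be left out. Depth limits Per1 in every class, Fkbp5 in T-like and Schwann-like cells and Klf9 in T-like, microglia-like and macrophage-like cells.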
